A study of Homo sapiens with 6 samples.

Results

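Translation factors are the proteins that start and extend protein synthesis on the ribosome, and 67 protein-coding genes of the 58735 genes in the count table were taken as this set. They were chosen by name alone: every protein-coding row whose symbol begins with EIF1 to EIF6 or with EEF1 or EEF2, leaving out the EIF2AK kinases. The name rule uses no measured value, although it was set with earlier results of these data known. The study measured RNA in T3M4, an established human line of pancreatic ductal adenocarcinoma, with 3 libraries labelled WT (genotype label: MUC16 expressing) and 3 labelled MUC16 knockout. All 6 came from cells grown to near confluence in serum-containing medium with no treatment. The labels give no clone, deletion or separate cultures, so p-values measure the spread between these libraries, which may be technical.

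Translation of most mRNAs begins when the cap-binding complex eIF4F and the scaffold eIF3 bring the small ribosomal subunit, loaded with initiator tRNA by eIF2, to the start of the mRNA. The complex scans to a start codon, the large subunit joins, and the elongation factors eEF1A and eEF2 then deliver each tRNA and move the ribosome on. In tumour cells the cap-binding step and the exchange factor eIF2B are known as points where growth and stress signals set the rate of protein synthesis.

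Read counts assigned to genes ran from 19088927 to 28612621 per library. MUC16, the targeted gene, went against the labels: it had 98, 144 and 90 counts under the WT label and 292, 504 and 323 under the knockout label (log2 fold change 1.79 ± 0.17 SE, adjusted p = 4.79e-09 by edgeR's quasi-likelihood test). Every direction below therefore compares the libraries labelled knockout with those labelled WT and nothing more. The 5 epithelial markers KRT8, KRT18, KRT19, EPCAM and CDH1 summed to between 2887 and 2943 counts per 1000000 (CPM) under the WT label and between 4730 and 4953 under the knockout label. The 9 markers of fibroblasts, leukocytes and endothelium summed to 48.7 to 53.4 CPM and 66.1 to 70.2 CPM, most of it from COL1A1 and PECAM1, while COL1A2 and CD3E had 0 counts in every library labelled WT. The part of these marker differences in the results was not tested.

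Most translation factor mRNAs were slightly lower under the knockout label, and 1 elongation factor was much higher. Of the 67 members, 61 had enough counts to be tested, 40 passed the test as lower, 3 as higher, and 18 did not pass. Lower members made up 65.6% of those tested, beside 25.9% called lower among all 16655 genes tested and 29.6% among the 13429 protein-coding ones. Higher members made up 4.92%, beside 26.7% of all genes. Calls in either direction covered 70.5% of members, beside 52.6% of all genes and 58.4% of protein-coding ones. The median log2 fold change was -0.18 over the tested members and 0.00 over all genes, and 52 of the 61 members lay below 0. Changes were small: 32 of the 40 lower members fell by less than 25%, 55 of the 61 members had a log2 fold change within 0.5 of zero, and only EEF1A2 among the called members changed at least 2-fold.

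Translation factors are abundant, and abundant genes were called lower more often in this comparison. Among the 3831 protein-coding genes whose mean level reached 64 CPM, 49.9% were called lower, 22.1% higher, and the median log2 fold change was -0.11. The 38 members at that level had 30 lower (78.9%), 1 higher and a median of -0.19. Scaling moved these counts: the members split into 7 higher and 30 lower with upper-quartile factors, and into 7 higher and 26 lower with cyclic loess, where 17 of the 38 abundant members and 35.1% of abundant genes were called lower. Of the 43 called members, 28 passed the threshold under all 16 alternatives.

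**Figure D1:**
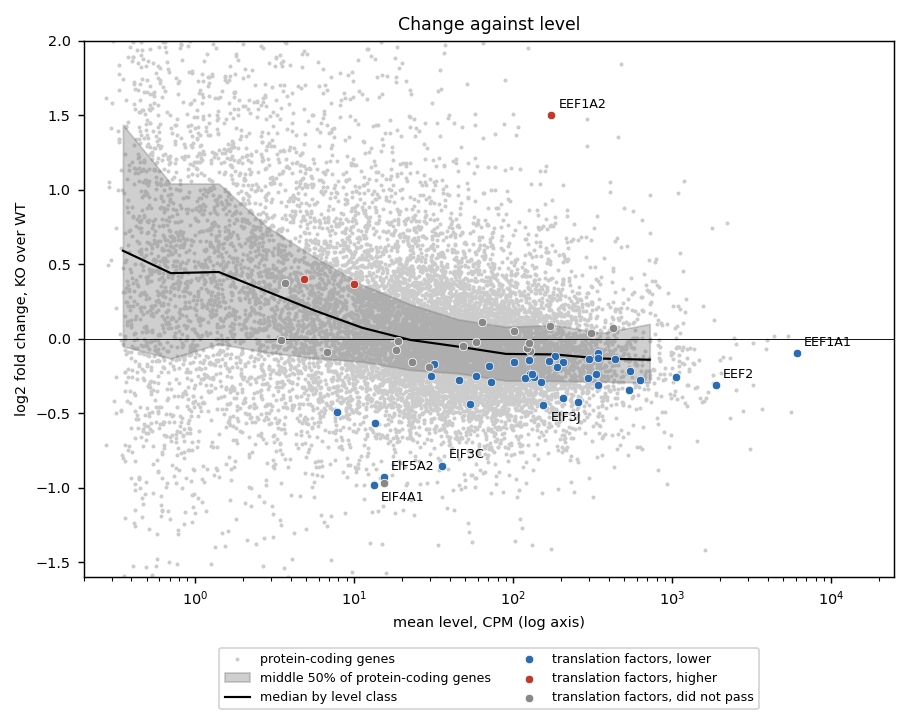
Log2 fold change of the libraries labelled knockout (KO) over those labelled WT (vertical axis) against mean level in CPM (horizontal log axis) for protein-coding genes (light grey, those beyond the axis limits not drawn) and the 61 tested translation factors (blue lower, red higher, dark grey did not pass). The line and band give the median and middle 50% of protein-coding genes by level. Most blue points lie below the line, EEF1A2 stands alone near 1.501, and EEF1A1 at the right edge lies close to 0.

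**Figure D2:**
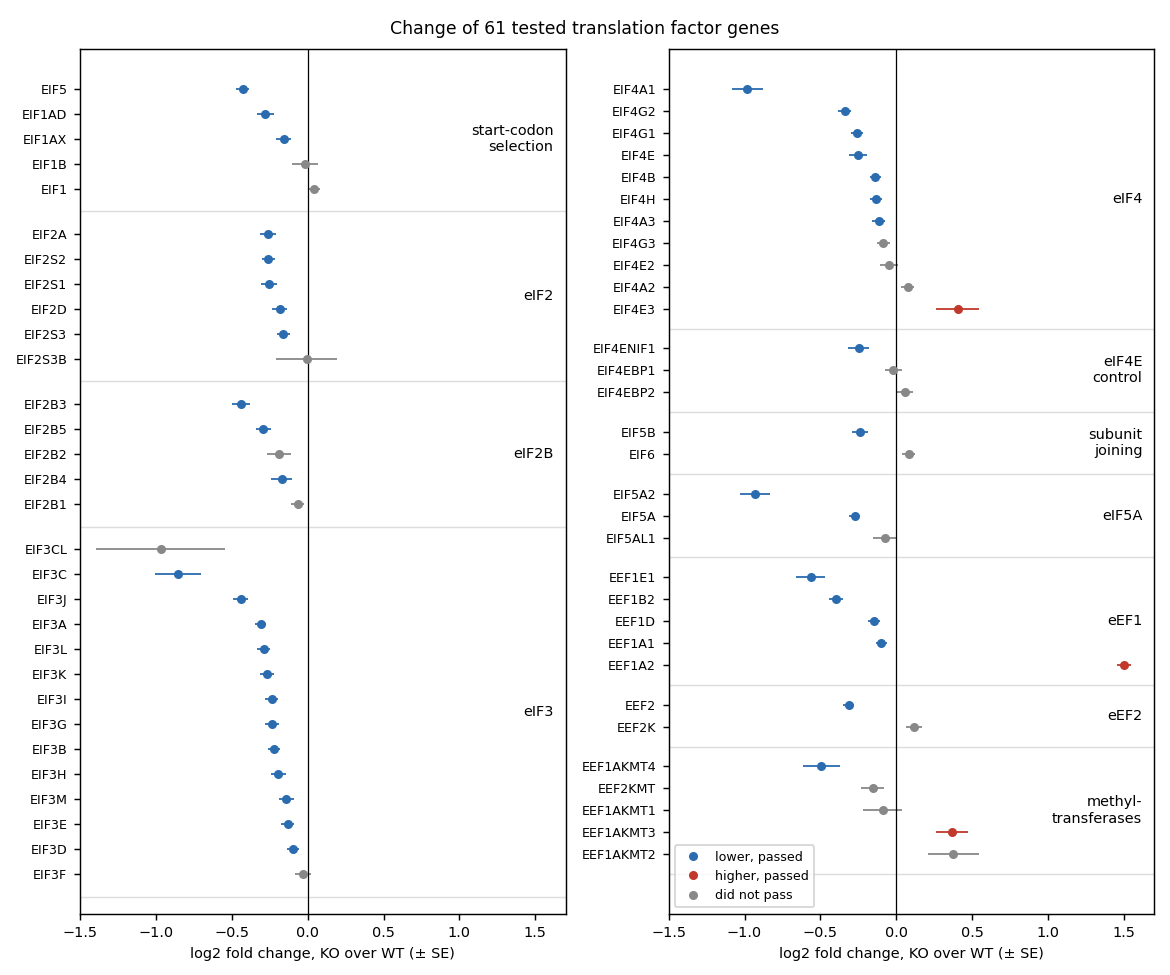
Log2 fold change with its standard error (horizontal axis) for each tested translation factor, in groups by role, from the fit over all genes with 3 libraries per group. Blue marks the 40 members that passed as lower, red the 3 that passed as higher and grey the 18 that did not pass.

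Summed over all 67 members, translation factor mRNA had 18831 ± 247 CPM (SD, n = 3) under the WT label and 16832 ± 456 CPM under the knockout label, and the groups did not overlap. Before scaling, the members held 1.83% ± 0.0226 and 1.73% ± 0.0403 (SD) of all raw counts. The scaling factors (TMM) behind the CPM were 0.972 to 0.974 under the WT label and 1.025 to 1.033 under the knockout label. EEF1A1 alone supplied 33.0% to 35.6% of the members' counts in each library. Without it the sums were 12552 ± 127 and 10967 ± 238 CPM, again apart. The 49 rows with an EIF symbol outside the eIF5A group summed to 9099 ± 150 and 7962 ± 205 CPM. They include the repressors of eIF4E and also EIF6, EIF4A3 and EIF1AD. In bulk RNA these levels are relative to the rest of the library. Less RNA per cell and a change in the other transcripts therefore cannot be told apart.

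**Figure D3:**
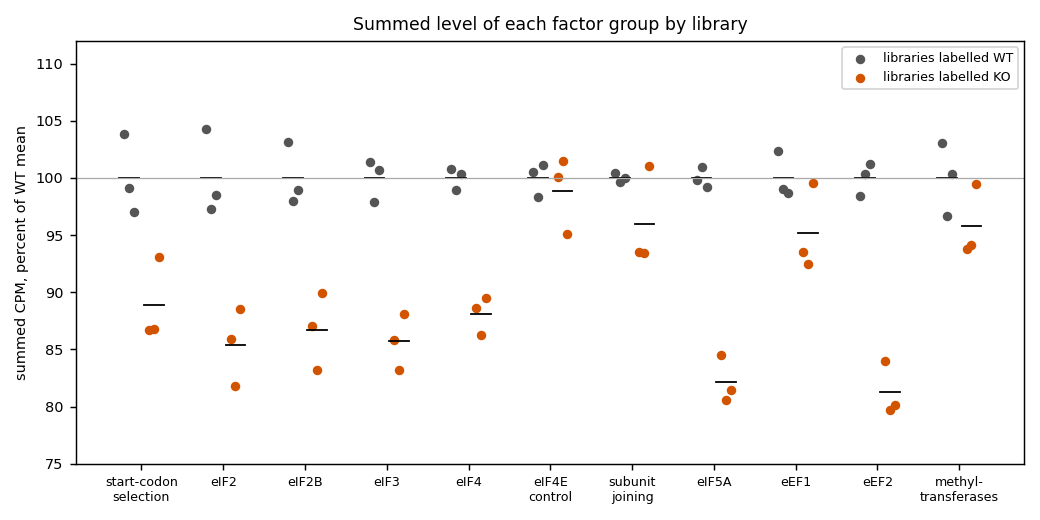
Summed CPM of each factor group in each library, as a percent of the mean of the 3 libraries labelled WT (vertical axis, which does not start at 0). In eIF2, eIF2B, eIF3, eIF4, eIF5A, eEF2 and the scanning factors every library labelled knockout lies below every library labelled WT, and in eEF1, the joining factors, the repressors and the methyltransferases the groups overlap.

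Many translation factor mRNAs are known to begin with a cytidine followed by an unbroken pyrimidine stretch, the 5' terminal oligopyrimidine (TOP) motif, through which mTORC1 signalling and the binding protein LARP1 control their translation. The starts of members carrying this motif are shown because EEF1A1 and EEF2, the most abundant per kilobase, share it. RefSeq promoter windows (GRCh38.p14, 250 bases before to 50 after the start) matched 54 of the 67 members. A start was counted as TOP where the first base was C and at least 4 further C or T followed. This held for 13 of the 54 members (24.1%) and for 5.14% of all 27305 genes with a window. Those 27305 include genes with too few counts to be tested, so the shares are not matched for level. Each line gives 20 bases before the start and 20 from it, 5' to 3' on the gene's strand, with the pyrimidine run from the start in capitals.
EEF1A1, chr6:73521013-73521052, minus strand: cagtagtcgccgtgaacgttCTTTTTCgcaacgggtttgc
EEF2, chr19:3985444-3985483, minus strand: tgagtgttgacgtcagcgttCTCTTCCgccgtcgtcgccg
EEF1B2, chr2:206159875-206159914, plus strand: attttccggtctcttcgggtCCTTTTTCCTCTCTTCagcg
EIF4B, chr12:53006436-53006475, plus strand: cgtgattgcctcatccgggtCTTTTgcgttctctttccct
EIF4A2, chr3:186783557-186783596, plus strand: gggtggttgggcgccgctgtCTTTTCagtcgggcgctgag
EIF3F, chr11:7987317-7987356, plus strand: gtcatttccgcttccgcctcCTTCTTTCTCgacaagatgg
EIF3K, chr19:38619168-38619207, plus strand: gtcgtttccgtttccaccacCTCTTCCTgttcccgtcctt
EIF3D, chr22:36529147-36529186, minus strand: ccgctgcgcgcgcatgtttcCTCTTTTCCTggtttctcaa
EIF2S3, chrX:24054936-24054975, plus strand: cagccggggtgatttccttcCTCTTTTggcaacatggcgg
EIF2S3B, chr12:10505870-10505909, plus strand: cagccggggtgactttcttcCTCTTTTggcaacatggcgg

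The pyrimidine run was 16 bases long in EEF1B2, 10 in EIF3F and EIF3D, 7 in EEF1A1 and EEF2, and 5 in EIF4B. EIF2D, EIF2A and EIF3M also carried a TOP start. Of the 13 members with one, 10 passed as lower and none as higher, with a median log2 fold change of -0.14. The 35 tested members with a window and no TOP start had 23 lower, 1 higher and a median of -0.24. Members with a TOP start had a median level of 206 CPM, beside 73.1 CPM for those without. The change within the TOP group ran from -0.40 for EEF1B2 to 0.07 for EIF4A2, which did not pass (adjusted p = 0.143 by edgeR). A match of letters is a description of the window and no measure of translation, which RNA counts do not give.

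Elongation factor eEF1A carries each aminoacyl-tRNA to the ribosome. Of its genes, EEF1A2 was higher under the knockout label, while EEF1A1 had a small fall. The EEF1A1 call was lost with its sign kept in 9 of 16 alternatives. In 1 more the sign turned and the gene did not pass. EEF1A2, the form known from muscle and neurons and raised in some tumours (ENSG00000101210, chr20:63488012-63499322, GRCh38), had 86.7, 94.2 and 91.2 CPM under the WT label and 269.9, 246.1 and 254.2 CPM under the knockout label. The lowest library labelled knockout was above every library labelled WT. Raw counts of 2284, 2534 and 2034 against 5275, 6327 and 7446 lay behind these levels. EEF1A2 rose 2.83-fold (log2 fold change 1.501 ± 0.05 SE, adjusted p = 3.20e-17 by edgeR), and the authors' deposited table gave a log2 fold change of 1.49. None of its exon bases is shared with another annotated gene. Within 500 kb of it, 29 other tested genes had 12 higher, 7 lower and a median log2 fold change of 0.08, beside 0.03 over the 456 tested genes of chromosome 20.

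EEF1A1, the ubiquitous form and the most abundant member (chr6:73515750-73523797), had 6437, 6210 and 6191 CPM under the WT label and 5746, 5696 and 6154 CPM under the knockout label. The groups were apart, but the highest library labelled knockout lay just under the lowest labelled WT. Its log2 fold change of -0.10 ± 0.04 SE passed by edgeR (adjusted p = 0.0351). The call was lost without 1 library in 5 of the 6 cases (all but knockout replicate 3), where the adjusted p reached 0.126, and the sign turned with cyclic loess (0.07, adjusted p = 0.147). Over its alternatives the adjusted p by edgeR, DESeq2 or limma ran from 0.00439 to 0.358. Pseudogene rows named for EEF1A1 held 3.20% as many counts as the gene.

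Per kilobase of exon, EEF1A2 made up 1.72% ± 0.103 of the combined EEF1A level under the WT label and 5.04% ± 0.315 under the knockout label. Summed, the EEF1A genes had 6370 ± 134 and 6122 ± 251 CPM, groups that overlapped. The log2 ratio of EEF1A1 to EEF1A2 counts differed by -1.601 (knockout label minus WT label) with no overlap between the groups, an exact two-sided permutation p of 0.1, the smallest that 3 against 3 allows, and 0.11 after adjustment over 11 ratios. The other ratios below that have groups apart share these p-values.

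The eEF1B subunits reload eEF1A with GTP. EEF1B2, the catalytic subunit, had 241.5, 227.4 and 234.6 CPM against 177.0, 168.8 and 188.8 CPM and fell by 24.0% (log2 fold change -0.40 ± 0.05 SE). All libraries labelled knockout were below all labelled WT, and the log2 ratio of EEF1A1 to EEF1B2 differed by 0.30, again with groups apart. EEF1D, another exchange subunit, fell by 9.65% (-0.15 ± 0.04 SE), although only 65.97% of its exon bases are free of genes on the other strand, whose reads an unstranded library cannot separate. Its call was lost with upper-quartile factors (-0.09, adjusted p = 0.0746 by edgeR) and cyclic loess (-0.04, adjusted p = 0.420 by limma). EEF1E1, which sits in the multi-synthetase complex, had 17.0, 15.5 and 16.3 CPM against 9.57, 11.05 and 12.2 CPM and fell by 32.4% (-0.57 ± 0.10 SE). EEF1G, the structural subunit, was listed at 0 counts in all 6 libraries. Of its exon bases 99.9% are shared on the same strand with the annotated gene AP002990.1, which had 41 to 103 counts. Whether reads of shared bases were counted is unknown, and no level is read from this 0.

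EEF2 moves the ribosome along the mRNA after each peptide bond and is the second most abundant member per kilobase (chr19:3976056-3985469). Its levels were 2063, 2099 and 2116 CPM under the WT label and 1741, 1650 and 1663 CPM under the knockout label. The groups were far apart beside their spread, 2092 ± 27.2 and 1684 ± 49.2 CPM. EEF2 fell by 19.5% (log2 fold change -0.31 ± 0.04 SE, adjusted p = 2.04e-07 by edgeR). EEF2K, the kinase that inhibits it, had 57.4, 62.4 and 63.6 CPM against 67.96, 67.2 and 63.5 CPM and did not pass (0.12 ± 0.05 SE, adjusted p = 0.0763 by edgeR). Its groups overlapped, and it passed as higher with upper-quartile factors (adjusted p = 0.0105), the stricter filter (0.0266), cyclic loess (0.00695) and without knockout replicate 3 (0.0340) by edgeR or limma. The log2 ratio of EEF2 to EEF2K differed by -0.43 with no overlap between groups (exact permutation p = 0.1).

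Elongation is also helped by eIF5A, which carries the hypusine modification and relieves stalled ribosomes. EIF5A2, a form of restricted expression, had 22.8, 17.5 and 20.6 CPM under the WT label and 10.8, 10.0 and 11.1 CPM under the knockout label. It fell by 47.5% (log2 fold change -0.93 ± 0.10 SE, adjusted p = 3.39e-08 by edgeR). EIF5A, the main form, had 684, 698 and 683 CPM against 586, 559 and 563 CPM and fell by 17.3% (-0.27 ± 0.04 SE). In both genes all libraries labelled knockout were below all labelled WT, and the log2 ratio of EIF5A to EIF5A2 counts differed by 0.65 between groups (exact permutation p = 0.1). EIF5AL1, a near-identical copy of EIF5A whose reads cannot be firmly separated from it, had a log2 fold change of -0.08 ± 0.08 SE.

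**Figure D4:**
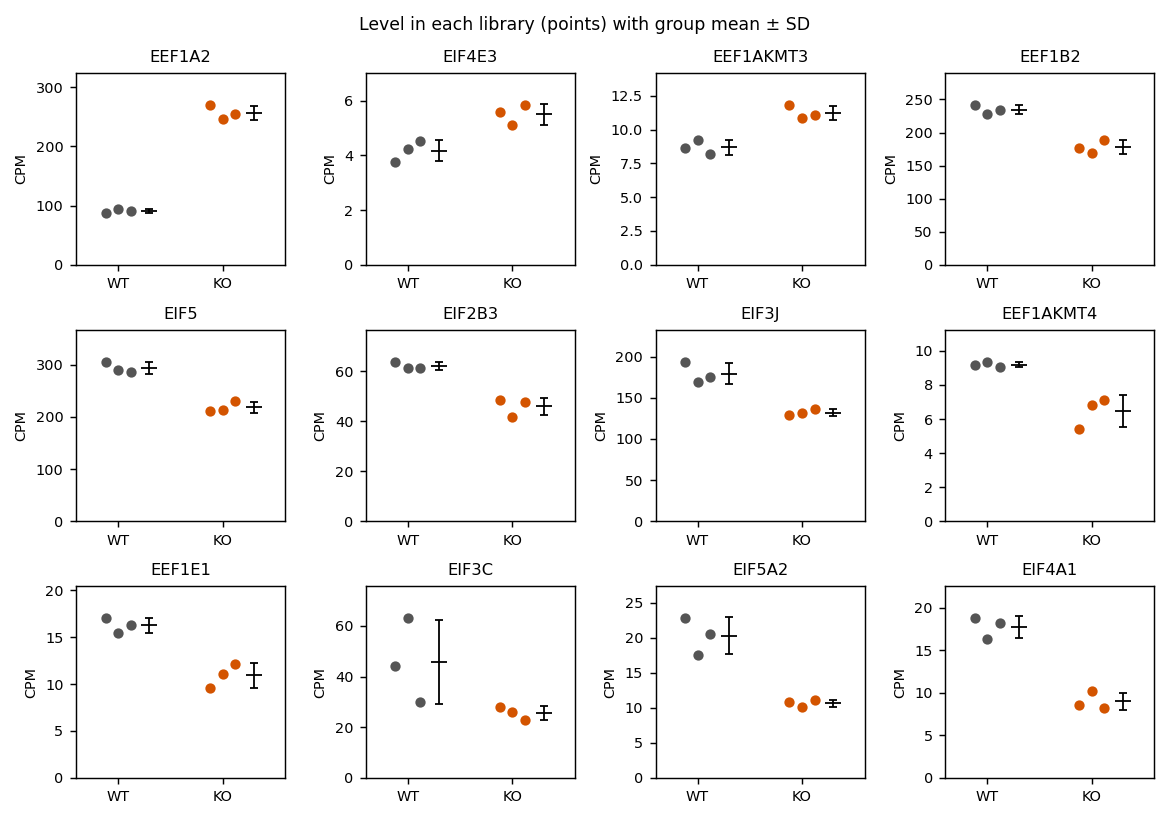
Level in CPM (vertical axes, each starting at 0) of the 12 called translation factors with the largest changes, in each of the 3 libraries labelled WT (grey points) and the 3 labelled knockout (KO, orange points), with the group mean ± SD beside them. EEF1A2, EIF4E3 and EEF1AKMT3 are higher in every library labelled knockout and the other panels are lower, with EIF3C the most scattered among the libraries labelled WT.

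Start codon selection rests on eIF1, eIF1A and the GTPase activator eIF5, and 3 of the 5 tested members of this group fell, with a group median of -0.16, which was -0.07 with cyclic loess. EIF5 had 305.9, 289.5 and 285.5 CPM under the WT label and 210.4, 212.9 and 231.2 CPM under the knockout label. It fell by 25.7% (log2 fold change -0.43 ± 0.04 SE, adjusted p = 2.48e-08 by edgeR) with no overlap between the groups. EIF1AD, which was placed in this group by its symbol alone, fell by 17.6%. EIF1AX fell by 10.4% (adjusted p = 0.0120), a call lost without WT replicate 1 or knockout replicate 1, where the adjusted p reached 0.0944 by edgeR, and also with upper-quartile factors (-0.10, adjusted p = 0.0987) and cyclic loess (-0.07, adjusted p = 0.281). EIF1, the group's most abundant member per kilobase, had 314.8, 306.7 and 299.95 CPM against 308.4, 308.5 and 331.1 CPM and did not pass (0.04 ± 0.04 SE), although with cyclic loess it passed as higher (0.16, adjusted p = 0.00204 by limma). EIF1B had a log2 fold change of -0.02 ± 0.08 SE.

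eIF2 brings the initiator tRNA, and its alpha subunit is the phosphorylation target of the stress kinases. Of 6 members 5 fell and none rose, with a median of -0.22, which was -0.13 with cyclic loess. EIF2S2, the beta subunit and the group's most abundant per kilobase, had 330.2, 316.0 and 319.2 CPM under the WT label and 272.6, 253.3 and 280.0 CPM under the knockout label (-0.26 ± 0.04 SE). EIF2S1, the alpha subunit, had 160.9, 140.6 and 142.1 CPM against 121.3, 118.3 and 131.7 CPM (-0.26 ± 0.05 SE). In both the groups were apart. EIF2S3, the gamma subunit, had a log2 fold change of -0.16 and EIF2D, an alternative tRNA carrier, of -0.18, and both passed. With cyclic loess both calls were lost, at -0.05 (adjusted p = 0.335) and -0.11 (0.0589) by limma. EIF2A, which is unrelated to the alpha subunit despite its name, had 141.0, 131.1 and 129.1 CPM against 110.2, 104.0 and 120.3 CPM and fell by 16.6%. EIF2S3B, at about 3 CPM, had a log2 fold change of -0.01 ± 0.20 SE.

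eIF2B recharges eIF2 with GTP and is held back by phosphorylated eIF2. Of its 5 subunits 3 fell, with a median of -0.19. EIF2B3 had 63.7, 61.2 and 61.2 CPM under the WT label and 48.3, 41.8 and 47.5 CPM under the knockout label and fell by 26.2% (log2 fold change -0.44 ± 0.06 SE, adjusted p = 1.15e-06 by edgeR). EIF2B5, the catalytic subunit, had 84.0, 76.1 and 81.2 CPM against 66.2, 65.1 and 65.8 CPM and fell by 18.3%. Both had groups that did not overlap. EIF2B4 passed narrowly (-0.17 ± 0.07 SE, adjusted p = 0.0411), and the call was lost without any 1 library other than knockout replicate 3, with an adjusted p of up to 0.155 by edgeR, and with upper-quartile factors (0.165), the stricter filter (0.0760), cyclic loess (0.0620) and DESeq2 (0.0566). EIF2B2 (-0.19 ± 0.08 SE, adjusted p = 0.0532) and EIF2B1 (-0.06 ± 0.04 SE) did not pass by edgeR. EIF2B2 passed as lower without knockout replicate 3 (adjusted p = 0.00182), with no filter (0.0239), DESeq2 size factors (0.0475) and the replicate block (0.0496) by edgeR. EIF2B1, the group's most abundant per kilobase, had 127.4, 124.2 and 123.2 CPM against 121.4, 115.8 and 121.2 CPM, which did not overlap. The log2 ratio of EIF2S1 to EIF2B5 differed by 0.04 and its groups overlapped (exact permutation p = 0.7).

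eIF3 is the largest initiation factor and bridges the small subunit and the cap complex. Of its 14 member rows 12 fell, none rose and all 14 log2 fold changes were below 0, with a median of -0.24. With cyclic loess the median was -0.13, EIF3D and EIF3F were above 0 (0.03 and 0.06), and EIF3B, EIF3D, EIF3E, EIF3H and EIF3M lost their calls. EIF3J, a loosely bound subunit at the decoding centre, had 193.7, 169.1 and 174.7 CPM under the WT label and 128.6, 130.9 and 136.0 CPM under the knockout label. It fell by 26.4% (log2 fold change -0.44 ± 0.05 SE, adjusted p = 6.23e-08 by edgeR), the groups wholly apart. The core scaffold subunit EIF3A had a log2 fold change of -0.31, and log2 fold changes of -0.29 (EIF3L), -0.27 (EIF3K), -0.24 (EIF3I), -0.23 (EIF3G), -0.22 (EIF3B) and -0.19 (EIF3H) also passed. With cyclic loess EIF3B and EIF3H were both at -0.09 and lost their calls (adjusted p = 0.0652 and 0.129 by limma). EIF3I had the highest level per kilobase of the group, 193 CPM per kilobase, with 359.5, 363.2 and 357.4 CPM against 309.6, 289.4 and 317.5 CPM. For EIF3L only 48.2% of exon bases are free of other annotated genes.

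The remaining eIF3 subunits were close to the test's limit. EIF3E (-0.13 ± 0.04 SE), EIF3M (-0.14 ± 0.05 SE) and EIF3D (-0.10 ± 0.04 SE, adjusted p = 0.0441) passed by edgeR. EIF3D and EIF3M were each lost without WT replicate 1, WT replicate 3, knockout replicate 1 or knockout replicate 2, with adjusted p up to 0.145 and 0.116. EIF3E was lost without WT replicate 1 or knockout replicate 2, with an adjusted p up to 0.0638. Scaling moved these 3 genes further: with upper-quartile factors EIF3E was at -0.08 (adjusted p = 0.140), EIF3M at -0.09 (0.150) and EIF3D at -0.04 (0.398) by edgeR. With cyclic loess EIF3E was at -0.0074 (adjusted p = 0.895), EIF3M at -0.05 (0.442) and EIF3D at 0.03 (0.582) by limma. EIF3M was the 1 lower member of 40 whose groups overlapped. EIF3F, an MPN-domain subunit, did not pass (-0.03 ± 0.05 SE).

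EIF3C and EIF3CL encode near-identical copies of the same core subunit, so their reads cannot be firmly assigned. EIF3C had 44.2, 63.0 and 29.8 CPM under the WT label and 27.99, 26.0 and 22.8 CPM under the knockout label. EIF3CL had 11.1, 8.96 and 41.1 CPM against 21.5, 5.56 and 5.29 CPM. WT replicate 3 was the lowest of its label in EIF3C and the highest in EIF3CL, and knockout replicate 1 was the highest of its label in EIF3CL. EIF3C passed (-0.85 ± 0.15 SE, adjusted p = 4.85e-05) and its log2 fold change ran from -1.08 to -0.55 over the fits without 1 library. EIF3CL did not pass (-0.97 ± 0.43 SE, adjusted p = 0.0604), and its value was 0.04 without WT replicate 3 and -1.89 at the other end. It passed as lower without WT replicate 1 (adjusted p = 0.0138), WT replicate 2 (0.0108) or knockout replicate 1 (0.000597) and with no filter (3.18e-22) by edgeR. Added into 1 row, a step chosen after the values were seen, the copies had 55.3, 72.0 and 70.9 CPM against 49.5, 31.6 and 28.1 CPM, groups that did not overlap (-0.88 ± 0.13 SE, adjusted p = 2.75e-06 by edgeR). The 12 other eIF3 rows summed to 3118 ± 66.8 and 2692 ± 80.0 CPM, also apart.

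eIF4F recognises the cap through eIF4E, is built on the scaffold eIF4G and unwinds the mRNA with the helicase eIF4A. Of the 11 tested genes of this group 7 fell and 1 rose, with a median of -0.13, which was -0.08 with upper-quartile factors and -0.0098 with cyclic loess. EIF4E had 67.7, 59.2 and 64.7 CPM under the WT label and 52.6, 52.3 and 55.8 CPM under the knockout label and fell by 16.03% (log2 fold change -0.25 ± 0.06 SE, adjusted p = 0.000672 by edgeR). The scaffold EIF4G1 had 1147, 1168 and 1171 CPM against 982, 945 and 986 CPM and fell by 16.4% (-0.26 ± 0.04 SE). Both genes had groups that did not overlap. EIF4G2, a scaffold that does not bind eIF4E, had 622, 572 and 593 CPM against 473, 456 and 482 CPM and fell by 21.1% (-0.34 ± 0.04 SE). EIF4G3, the third scaffold gene, had 131.1, 129.3 and 134.0 CPM against 127.1, 125.8 and 119.0 CPM and did not pass (-0.08 ± 0.04 SE). The log2 ratio of EIF4G1 to EIF4G3 differed by -0.17 and that of EIF4G1 to EIF4G2 by 0.08, each with groups apart and an exact permutation p of 0.1.

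The eIF4A helicases were measured unequally well. EIF4A2 had 432.7, 403.4 and 415.4 CPM under the WT label and 424.3, 434.5 and 458.1 CPM under the knockout label, overlapping groups that did not pass (0.07 ± 0.04 SE). It passed as higher with upper-quartile factors (0.13, adjusted p = 0.0113), the stricter filter (0.10, 0.0415) and cyclic loess (0.20, 0.000258) by edgeR or limma. EIF4A1, the main helicase in most cells, was listed at 18.7, 16.3 and 18.2 CPM against 8.55, 10.2 and 8.23 CPM. It passed as lower in all alternatives (-0.98 ± 0.10 SE, adjusted p = 2.10e-08 by edgeR, log2 fold change -1.08 to -0.91). Only 51.4% of its exon bases are free of other genes, since the read-through gene SENP3-EIF4A1 and AC016876.2 overlap it. How reads of shared bases were counted is not given in the sources used here, so its level may be incomplete. Which of EIF4A1 and EIF4A2 is more abundant is therefore not read from these levels. The log2 ratio of EIF4A1 to EIF4A2 counts differed by -1.06 between groups, with no overlap (exact permutation p = 0.1). This ratio rests on the same possibly incomplete EIF4A1 row. Pseudogene rows named for EIF4A1 held 65.5% as many counts as the gene itself. EIF4A3, the exon junction helicase, fell by 7.75%, a call lost without WT replicate 2, knockout replicate 1 or knockout replicate 2, where the adjusted p reached 0.0868 by edgeR. It was also lost with upper-quartile factors (-0.06, adjusted p = 0.225 by edgeR) and cyclic loess (-0.0098, adjusted p = 0.859 by limma). The helicase cofactors EIF4B and EIF4H passed with log2 fold changes of -0.14 and -0.13. Both calls were lost with upper-quartile factors (-0.08 for each, adjusted p = 0.0777 and 0.0933 by edgeR), and with cyclic loess the values were -0.02 and -0.0039 (adjusted p = 0.722 and 0.938 by limma). EIF4H had the highest level per kilobase in the group, 137 CPM per kilobase, with 450.7, 458.9 and 464.6 CPM against 427.8, 410.0 and 415.2 CPM.

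Among the other cap-binding proteins and the repressors of eIF4E, 1 gene rose, 1 fell and 3 did not pass. EIF4E2, a competitor that does not support initiation by itself, had 48.7, 47.7 and 50.8 CPM under the WT label and 51.0, 45.6 and 46.3 CPM under the knockout label (-0.05 ± 0.06 SE, did not pass). EIF4E3 had 3.76, 4.24 and 4.53 CPM against 5.58, 5.10 and 5.84 CPM and passed as higher (0.40 ± 0.14 SE, adjusted p = 0.0208). The call was lost without WT replicate 1, knockout replicate 1 or knockout replicate 3, with an adjusted p up to 0.0855 by edgeR, and with cyclic loess (0.24, adjusted p = 0.175 by limma), and the authors' deposited table gave it an adjusted p of 0.105. GPR27, on the other strand, shares 2.77% of the exon bases of EIF4E3. It had 73, 79 and 62 counts under the WT label and 246, 291 and 365 under the knockout label. The part of GPR27 reads in the EIF4E3 counts was not tested. EIF4EBP1, the best-known repressor, had 57.9, 57.5 and 61.4 CPM against 58.3, 55.1 and 60.95 CPM (-0.02 ± 0.05 SE), and EIF4EBP2 had 102.2, 97.3 and 100.2 CPM against 104.3, 113.7 and 93.6 CPM (0.05 ± 0.06 SE). Neither passed, and in both the groups overlapped. EIF4EBP2 passed as higher with cyclic loess (0.14, adjusted p = 0.0447 by limma) and without knockout replicate 3 (0.13, adjusted p = 0.0352 by edgeR). The log2 ratio of EIF4E to EIF4EBP1 differed by -0.23 that of EIF4E to EIF4EBP2 by -0.30 and that of EIF4E to EIF4E2 by -0.21, with every library labelled knockout below every library labelled WT (exact permutation p = 0.1 for each). EIF4ENIF1, which carries eIF4E to the nucleus and to processing bodies, had 33.1, 34.1 and 32.7 CPM under the WT label against 29.7, 26.3 and 28.3 CPM and fell by 15.8% (-0.25 ± 0.07 SE) with groups apart.

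The E-box CACGTG is the known recognition sequence of MYC and related factors, and EIF4E is a textbook MYC target, so members with the motif were counted. It was present in the window of 14 of the 54 matched members (25.9%) and in 8.77% of all genes with a window. The 12 tested members with it had 9 lower, none higher and a median log2 fold change of -0.19. The 36 tested members without it had 24 lower, 1 higher and the same median of -0.19. The TATA motif TATAAA, searched on both strands, was in 3 of 54 members (5.56%) and 14.0% of all genes. As with the TOP starts, these shares of all genes are not matched for level. The windows of EIF4E, EIF4G1 and EIF5A2 are shown because each holds 2 copies of CACGTG, in capitals, in genes that fell.
EIF4E, chr4:98929084-98929383, minus strand: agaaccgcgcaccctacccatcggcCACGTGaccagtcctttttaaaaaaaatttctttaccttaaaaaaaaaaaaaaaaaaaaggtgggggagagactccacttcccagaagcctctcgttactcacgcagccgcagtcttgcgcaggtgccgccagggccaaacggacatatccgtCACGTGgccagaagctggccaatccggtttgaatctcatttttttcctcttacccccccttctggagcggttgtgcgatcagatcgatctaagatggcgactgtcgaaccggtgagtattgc
EIF4G1, chr3:184314356-184314655, plus strand: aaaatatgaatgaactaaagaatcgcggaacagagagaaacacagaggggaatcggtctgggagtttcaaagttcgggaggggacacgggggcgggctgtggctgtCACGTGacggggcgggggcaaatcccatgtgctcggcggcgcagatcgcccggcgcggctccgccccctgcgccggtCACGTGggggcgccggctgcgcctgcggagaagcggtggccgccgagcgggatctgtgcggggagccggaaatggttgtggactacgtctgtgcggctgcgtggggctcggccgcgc
EIF5A2, chr3:170908588-170908887, minus strand: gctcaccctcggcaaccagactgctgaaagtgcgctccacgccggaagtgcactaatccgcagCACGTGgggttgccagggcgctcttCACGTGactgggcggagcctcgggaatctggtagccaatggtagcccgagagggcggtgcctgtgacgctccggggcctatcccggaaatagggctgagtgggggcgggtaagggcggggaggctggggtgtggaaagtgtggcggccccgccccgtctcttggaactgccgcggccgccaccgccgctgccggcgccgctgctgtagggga

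Counted from the start, the copies began at -225 and -72 in EIF4E, at -144 and -67 in EIF4G1, and at -187 and -162 in EIF5A2. No binding was measured, and the motif's part in the levels was not tested.

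Subunit joining is carried out by eIF5B, while eIF6 keeps the large subunit from joining too early. EIF5B had 148.3, 134.9 and 142.9 CPM under the WT label and 113.8, 116.7 and 129.8 CPM under the knockout label and fell by 15.3% (-0.24 ± 0.05 SE) with no overlap. EIF6 had 160.2, 171.2 and 164.3 CPM against 173.5, 170.3 and 180.8 CPM and did not pass (0.08 ± 0.04 SE). It passed as higher with upper-quartile factors (adjusted p = 0.00978), the stricter filter (0.0334) and cyclic loess (0.000962) by edgeR or limma.

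Lysine methyltransferases act on the elongation factors themselves. EEF1AKMT3 had 8.61, 9.25 and 8.20 CPM under the WT label and 11.8, 10.9 and 11.1 CPM under the knockout label and rose by a log2 fold change of 0.37 ± 0.10 SE. It overlaps METTL1, which lies on the other strand. EEF1AKMT4 had 9.15, 9.37 and 9.05 CPM against 5.42, 6.85 and 7.14 CPM and fell by 28.97%. Other annotated genes leave 53.2% of its exon bases unshared. Both had groups apart. EEF1AKMT2 (0.38 ± 0.17 SE) and EEF1AKMT1 (-0.09 ± 0.13 SE) did not pass, although EEF1AKMT2 passed as higher with upper-quartile factors (adjusted p = 0.0324) and the stricter filter (0.0436) by edgeR. EEF2KMT, the group's most abundant per kilobase, had 26.3, 22.5 and 25.01 CPM against 22.9, 21.3 and 21.99 CPM, overlapping groups that did not pass (-0.16 ± 0.08 SE), and it passed as lower without WT replicate 2 (adjusted p = 0.0278 by edgeR). The 6 untested members were EIF4EBP3, with 0 to 5 counts per library, EEF1G, EIF4E1B, the read-through rows EEF1AKMT4-ECE2 and EEF1E1-BLOC1S5, and 1 further initiation factor row, the last 5 at 0 counts in every library.

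Across the members, 46 of 61 had groups that did not overlap, beside 59.0% of all genes and 64.2% of protein-coding ones. Among protein-coding genes of at least 64 CPM the share was 76.1%, and 32 of the 38 members at that level had such groups. The authors' deposited table listed 62 members and called 39 lower and 2 higher. All 41 were called in the same direction here, EIF2B4 and EIF4E3 were called here only, and the log2 fold changes of tested members differed by at most 0.04.

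A list of 56 other genes of the translation pathway was read in the same fit. Of 55 tested, 33 fell (60.0%) and 7 rose (12.7%), beside 25.9% lower and 26.7% higher over all genes and 49.9% and 22.1% among abundant protein-coding ones. The median log2 fold change of the list was -0.19. Among signalling genes of mTORC1 and MNK, 7 of 13 fell and 2 rose, among eIF2 kinases and phosphatase subunits 5 of 7 fell and 1 rose, among mitochondrial factors 5 of 8 fell, among termination and rescue factors 3 of 4 fell, among poly(A) and scaffolding partners 6 of 13 fell and 3 rose, and of the selenocysteine pair 1 rose and the other did not pass. LARP1, which binds TOP starts such as those shown above, had 645, 627 and 659 CPM under the WT label and 425, 438 and 383 CPM under the knockout label and fell by 35.4% (-0.63 ± 0.05 SE). PDCD4, which binds and inhibits eIF4A, had 13.4, 13.6 and 13.0 CPM against 24.6, 26.0 and 29.4 CPM and rose 2.002-fold (log2 fold change 1.00 ± 0.08 SE, adjusted p = 5.54e-10 by edgeR). Both genes had groups that did not overlap. PABPC4, a poly(A)-binding protein, fell by 30.8%, and the release factor ETF1 had a log2 fold change of -0.51 and passed.

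Genes of the enzymes that modify eIF5A and EEF2 were on this list, and both hypusination genes fell. DHPS, the first enzyme of eIF5A hypusination, fell by 31.1% (-0.54 ± 0.19 SE, adjusted p = 0.0193) from 41 to 90 counts per library, a call lost without WT replicate 3 or knockout replicate 1, with an adjusted p up to 0.104 by edgeR. DPH2 and DPH7, which make the diphthamide of EEF2, had log2 fold changes of -0.55 and -0.52, and 5 of the 6 diphthamide genes passed as lower. DEPTOR, an mTOR inhibitor, passed as higher (1.255 ± 0.41 SE) on 6 to 22 counts per library, a call lost without WT replicate 2 or WT replicate 3, with an adjusted p up to 0.0556 by edgeR, and with cyclic loess (0.80, adjusted p = 0.0720 by limma). LARP1 and ETF1 lie on chromosome 5, where the 781 tested genes had a median log2 fold change of -0.20, beside 0.01 on the other chromosomes. Of the 7 tested pathway genes on chromosome 5, 5 fell and 1 rose. No tested translation factor lies there.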

How the data were processed

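RNA was measured in 6 T3M4 libraries, 3 labelled WT and 3 labelled MUC16 knockout, grouped by title and genotype label. The authors deposited raw read counts for each gene with its length, symbol and biotype. Rows match GENCODE release 29 and give positions on GRCh38. The NEBNext Ultra kit, named in the labels' protocols, leaves strand unmarked. The submitters' processing notes name fastp, HISAT2, STAR and DESeq beside GRCh38 and hg38. Versions, roles and the way reads of overlapping genes were counted: not given in the sources used here. The authors also deposited their own comparison, whose log2 fold changes and p-values are printed only under that name. A further 18 per-sample columns of deposited values were not used.

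The count test was edgeR's quasi-likelihood fit (version 4.0.16, R 4.3.3; two-sided, TMM factors, filterByExpr at minimum count 10 and minimum total 15) on 16655 genes, with Benjamini-Hochberg adjustment over all of them and a threshold of 0.05. Standard errors derive from its F statistic. A level is a TMM-scaled CPM, and a level per kilobase divides it by the deposited gene length, which equals the length of all annotated exons together. The expressed mRNA may be shorter, so shares and rankings per kilobase depend on the annotation. Ratios within a library were compared by an exact two-sided permutation test over the 6 libraries. Members, gene lists and tests were chosen with earlier results of these data known. Roles were assigned by symbol. Values in every library are given for the 12 largest called changes with at least 100 normalised counts on average, for the most changed and the most abundant member of each role, and for the ratio pairs; others named by library were picked after their values were seen. On simulated data of 16655 genes with 50 changed genes per fold, 44%, 76%, 92% and 98% were recovered at 1.25-, 1.5-, 2- and 4-fold, with 7 false calls. The simulation gave every gene the same dispersion and changed genes in random directions. It therefore does not bear on calls that moved with the scaling. Libraries of the same label differed by more than sampling noise. Alternatives were other scalings, filters and tools (DESeq2 1.42.0, limma 3.58.1), a stricter threshold, protein-coding genes alone, a replicate block and each library left out.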

Additional observations from a re-analysis of the deposited data

How the results depend on the processing

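Of 976 values of single members over 16 alternatives, 856 kept their direction and side of the threshold. With the sign kept, 68 lost the call and 24 gained one, and 28 changed sign. Those that changed sign include EEF1A1 and EIF3D with cyclic loess, which also lost their calls there. Of the 43 called members, 35 kept their call in all 6 fits without a library. The 40 lower and 3 higher members became 30 lower and 7 higher with upper-quartile factors and 26 lower and 7 higher with cyclic loess. With the stricter filter they became 35 lower and 7 higher, and the cause was not tested. The median of the members, -0.18, was -0.13 with upper-quartile factors and -0.12 with cyclic loess. The median of all genes was 0.00, 0.06 and -0.01 in these 3 settings. Without 1 library the median of the members ran from -0.21 to -0.16, with 34 to 41 lower and 2 to 4 higher members.

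Log2 fold changes that changed sign were as follows. With upper-quartile factors EIF3F was 0.0268, EIF4EBP1 0.0365, EIF4E2 0.0091, EIF1B 0.0385 and EIF2S3B 0.0489. With cyclic loess EEF1A1 was 0.0673, EIF3D 0.0268, EIF4G3 0.0114, EIF3F 0.0629, EIF2B1 0.0297, EIF4EBP1 0.0434 and EIF4E2 0.00816. The stricter filter gave EIF4EBP1 0.00804, EIF1B 0.0102 and EIF2S3B 0.0192, limma-voom gave EIF2S3B 0.0262, and the replicate block gave EIF2S3B 0.0453. Without 1 library EIF3F ran from -0.0889 to 0.0311, EIF4EBP2 from -0.0147 to 0.129, EIF4EBP1 from -0.0558 to 0.0221, EIF1B from -0.0672 to 0.0398, EIF3CL from -1.89 to 0.0366, EEF1AKMT1 from -0.187 to 0.00181, EIF2S3B from -0.184 to 0.309, and the log2 ratio of EIF2S1 to EIF2B5 from -0.00878 to 0.0660.

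Same-numbered libraries did not deviate together (r = 0.0116, 0.0205 and -0.0240), so the numbers were not used as pairs. With the replicate block 39 members were lower and 3 higher: EEF1A1 (adjusted p = 0.0658) and EIF3D (0.0674) were lost and EIF2B2 (0.0496) was gained. DEPTOR had too few counts for the stricter filter and has no value there. Of the 23 members under 64 CPM 11 did not pass, and 17 tested members share over 10% of their exon bases with other genes.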
